A study of Homo sapiens with 18 samples.

Results

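The regions described here are 3365 MAX peaks that lay inside protein-coding genes and were called in the peak list of wild-type MYC but in that of neither of 2 MYC mutants. Regions were chosen by the measured peak calls: a region was taken when its peak in the wild-type list shared no base with any peak of either mutant list, and when its summit lay inside a protein-coding gene but more than 1000 bp from every outer gene end. These WT-only gene-body peaks made up 9.72% of the 34617 wild-type peaks on chromosomes 1 to 22 and X (95% Clopper-Pearson interval 9.41 to 10.04%, which covers counting error only, as do all intervals below). Of the 7940 wild-type peaks on these chromosomes with no mutant partner, 42.4% (41.3 to 43.5%) were of this kind; 3889 lay outside genes and 686 at gene ends. Among all 11583 wild-type peaks inside gene bodies, 29.1% had no partner in a mutant list, a share fixed by the rule and given only as a count. In the same gene bodies 6791 wild-type peaks were overlapped in both mutant lists and are called shared gene-body peaks.

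The cells were U2OS, a human osteosarcoma line, in which the cells' own MYC gene had been knocked out and which carried a doxycycline-inducible (Tet-On) MYC transgene. The transgene was wild type (WT) or 1 of the mutants that the labels name 3A and 7A, and every group, also the groups without doxycycline (Dox), thus lacked endogenous MYC. Cells were given Dox at 1 µg/ml for 24 h, or PBS without Dox, and NIH3T3 mouse cells, at 10%, were added so that their chromatin could serve as an outside standard (ChIP-Rx). Each of the 6 groups had 2 MAX immunoprecipitation libraries from biological replicates, 12 in all, and 1 input library. The antibody field names MAX, whereas the protocol text describes an anti-FLAG antibody, and the titles and the antibody field were followed. The data are 3 peak lists, 1 per MYC form, with 34622 WT, 27294 3A and 25159 7A peaks. Which libraries, with or without Dox, stand behind a list, and as signal or as control, is not stated. The lists do not tell replicates apart, so no value below has a replicate check and no test was made. The knockout and the level of the transgene cannot be read from peak lists. Library depth is not given in the lists.

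MAX is a small basic helix-loop-helix leucine zipper protein that binds DNA as a dimer with itself, with MYC, or with MXD proteins, MNT and MGA. The dimers recognise the E-box, with CACGTG as the best-bound form, and MYC needs MAX to bind it. MYC with MAX is best known at promoters of growth genes, while sites inside genes may be internal promoters, enhancers in introns or sites of unknown role. A peak list shows where signal passed a threshold; a peak absent from a list is one that was not called, not a proof of no binding.

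The bases under a peak could be read for the 64 WT-only gene-body peaks whose summit lay in a window of 250 bases before to 50 bases after an annotated transcription start (RefSeq, GRCh38.p14). Such starts belong to shorter transcripts of the host gene or to other genes within it: 42 of the 64 peaks lay in a window of a protein-coding gene and 24 in a window of a lncRNA gene, some in both. CACGTG, searched on both strands, stood in the window of 8 of the 64 (12.5%, 5.55 to 23.2%). The same held for 108 of 721 shared gene-body peaks with the summit in such a window (14.98%, 12.5 to 17.8%) and 7.27% of all 34961 windows. The former shares count peaks and the last counts windows, and a peak can lie in several windows. Shown here are the 250 bases before the start for the 6 strongest of these 8, and for NR3C2 as a strong peak without CACGTG. All run 5′ to 3′ on the strand of the transcript, and capitals mark CACGTG and CACGCG, the latter also as its reverse complement CGCGTG.
OPRL1, + strand, chr20:64092438-64092687: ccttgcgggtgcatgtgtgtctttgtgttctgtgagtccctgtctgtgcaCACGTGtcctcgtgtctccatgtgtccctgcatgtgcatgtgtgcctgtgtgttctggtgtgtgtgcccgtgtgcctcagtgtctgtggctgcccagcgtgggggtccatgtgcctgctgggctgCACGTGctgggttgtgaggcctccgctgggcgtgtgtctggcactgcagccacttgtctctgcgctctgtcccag
LOC124904716 in PAK4, - strand, chr19:39156552-39156801: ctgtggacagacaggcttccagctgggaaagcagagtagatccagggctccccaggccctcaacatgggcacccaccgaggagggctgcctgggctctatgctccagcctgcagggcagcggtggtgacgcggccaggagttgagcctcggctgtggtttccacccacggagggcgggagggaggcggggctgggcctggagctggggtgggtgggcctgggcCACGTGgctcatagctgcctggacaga
SOHLH1, - strand, chr9:135699482-135699731: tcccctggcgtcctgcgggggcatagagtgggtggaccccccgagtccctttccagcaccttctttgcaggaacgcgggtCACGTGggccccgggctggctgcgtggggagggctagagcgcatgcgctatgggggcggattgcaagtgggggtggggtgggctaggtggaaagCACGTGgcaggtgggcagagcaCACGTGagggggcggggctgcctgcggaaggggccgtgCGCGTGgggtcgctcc
CUX1, + strand, chr7:101817376-101817625: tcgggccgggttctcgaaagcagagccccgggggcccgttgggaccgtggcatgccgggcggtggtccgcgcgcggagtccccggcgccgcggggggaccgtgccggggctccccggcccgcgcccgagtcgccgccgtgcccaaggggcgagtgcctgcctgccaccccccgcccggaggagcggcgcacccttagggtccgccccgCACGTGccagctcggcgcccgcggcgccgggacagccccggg
TTC39A, - strand, chr1:51297962-51298211: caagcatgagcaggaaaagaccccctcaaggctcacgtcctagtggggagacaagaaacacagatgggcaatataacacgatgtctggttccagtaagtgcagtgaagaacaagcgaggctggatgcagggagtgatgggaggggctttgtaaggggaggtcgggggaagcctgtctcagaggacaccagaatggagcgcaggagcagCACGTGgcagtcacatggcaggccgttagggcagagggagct
EPB41L1-AS1 in EPB41L1, - strand, chr20:36155761-36156010: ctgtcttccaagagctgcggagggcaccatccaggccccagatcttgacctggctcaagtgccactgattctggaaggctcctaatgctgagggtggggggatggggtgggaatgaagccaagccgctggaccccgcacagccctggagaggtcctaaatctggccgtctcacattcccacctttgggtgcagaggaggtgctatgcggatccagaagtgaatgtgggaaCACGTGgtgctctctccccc
NR3C2, - strand, chr4:148442415-148442664: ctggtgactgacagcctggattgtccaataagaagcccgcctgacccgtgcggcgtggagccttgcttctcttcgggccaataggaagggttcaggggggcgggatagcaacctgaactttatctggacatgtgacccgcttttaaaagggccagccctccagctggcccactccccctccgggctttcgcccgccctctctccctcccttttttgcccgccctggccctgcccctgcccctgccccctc

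In these 8 peaks the summit and CACGTG lay in the same window by selection, which bounds their distance. A distance to expect without any link was not worked out, and the nearest CACGTG was taken where a window held several. In TTC39A and in EPB41L1-AS1, an antisense RNA gene, the summit fell on the CACGTG itself, 42 and 20 bases before the start (fold enrichments 9.78 and 7.92). In SOHLH1, a germline transcription factor of the same helix-loop-helix class as MAX, CACGTG began 170, 76 and 54 bases before the start, and the summit of the peak (fold enrichment 13.4) was 3 bp from the nearest. The PAK4 peak (16.9) was 7 bp away. In CUX1, a homeobox gene (13.2), and OPRL1, the nociceptin receptor gene (30.2), the summit was 40 and 39 bp away. Over all 8 the median distance was 7 bp (0 to 114), and 7 of 8 lay within 50 bp; under shared gene-body peaks the median was 11 bp (0 to 213, n = 108), with 84 of 108 within 50 bp. CACGCG, a variant searched after the other results were seen, stood in the window of 15 of the 64 peaks (23.4%, 13.8 to 35.7%), against 25.5% of shared peaks and 11.4% of all windows. Any CANNTG other than CACGTG was in 64.1% (51.1 to 75.7%), 49.8% and 61.4%. TGANTCA, the AP-1 site, was in 14.1% (6.64 to 25.0%), 8.88% and 7.68%. A match is a description of the letters and not of a bound site.

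WT-only gene-body peaks were weaker, narrower and lower in coverage than shared ones. Their median fold enrichment, the peak caller's linear ratio of immunoprecipitation over background at the summit, was 7.59, with a middle range of 5.72 to 10.5 and extremes of 2.56 and 87.2; the median of shared gene-body peaks was 12.1. Median width was 323 bp against 613 bp. A wide peak is likelier to share a base with a mutant peak, so the overlap rule itself favours narrow members. With sharing judged by summits within 100 bp, the median width of members was 351.5 bp. The median −log10 q, where q is the caller's adjusted p, was 37.8 against 117. Coverage could be solved from the deposited values for 3121 members. At their summits the median treatment coverage, a stacked fragment count on the caller's own scale, was 75.9, against 171 for shared peaks, and the median background was 9.0 against 13.0. Both coverages were solved from the fold, so the larger difference in signal than in background restates the difference in fold. WT-only peaks outside genes had nearly the same medians (7.45 for fold, 318 bp and 73.8), as did WT-only gene-end peaks in fold and coverage (7.67 and 78.7), though not in width (410 bp). Only 34 members (1.01%, 0.701 to 1.41%) stood in the strongest 10% of the WT list by fold, compared with 807 shared peaks (11.9%).

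**Figure D1:**
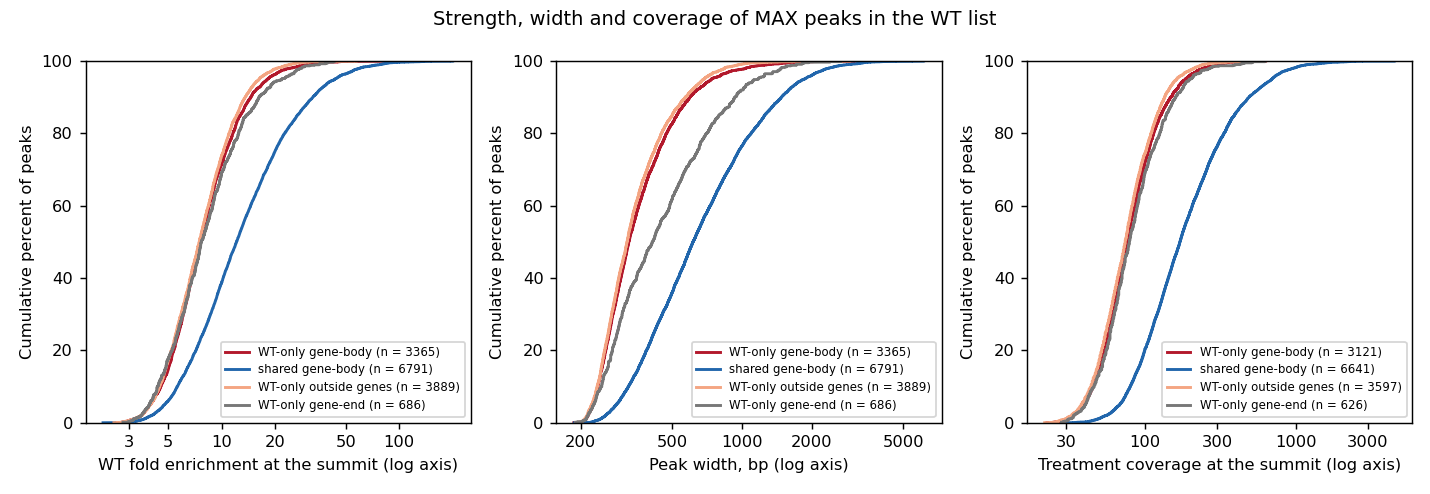
Cumulative percent of peaks (vertical axis) against WT fold enrichment, peak width in bp and solved treatment coverage at the summit (horizontal axes, logarithmic) for 4 sets of WT peaks; each line is 1 set, with its n in the legend. WT-only gene-body peaks (medians 7.59, 323 bp and 75.9) run with WT-only peaks outside genes and left of shared gene-body peaks (12.1, 613 bp and 171).

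The share without a mutant partner was lower among stronger peaks. It was 44.0% (41.1 to 46.9%, n = 1141) for gene-body peaks with a fold enrichment under 5 and 42.1% (n = 2715) from 5 to 7.5. It was 34.9% (n = 2192) from 7.5 to 10, 26.5% (n = 2483) from 10 to 15, 14.6% (n = 1188) from 15 to 20, and 6.60% (5.51 to 7.82%, n = 1864) at 20 and above. Members of like fold still differed from shared peaks in width and coverage, though width bears on the overlap by which members were chosen. Since fold is the ratio of treatment coverage to background, a lower coverage at like fold goes with a lower background. Between 10 and 15 the median width was 329.5 bp for 658 members and 626 bp for 1543 shared peaks, and the median treatment coverage was 88.4 and 169. An annotated start lay within 1000 bp of 5.17% (3.60 to 7.15%) of the former and 20.1% (18.1 to 22.2%) of the latter. Starts missing from the promoter table used, which held none on chromosome 8, counted as absent. The intervals of the start share in the plot of starts by fold class were apart in all classes except the weakest, under 5 (5.75 to 10.7% against 10.1 to 16.9%).

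**Figure D2:**
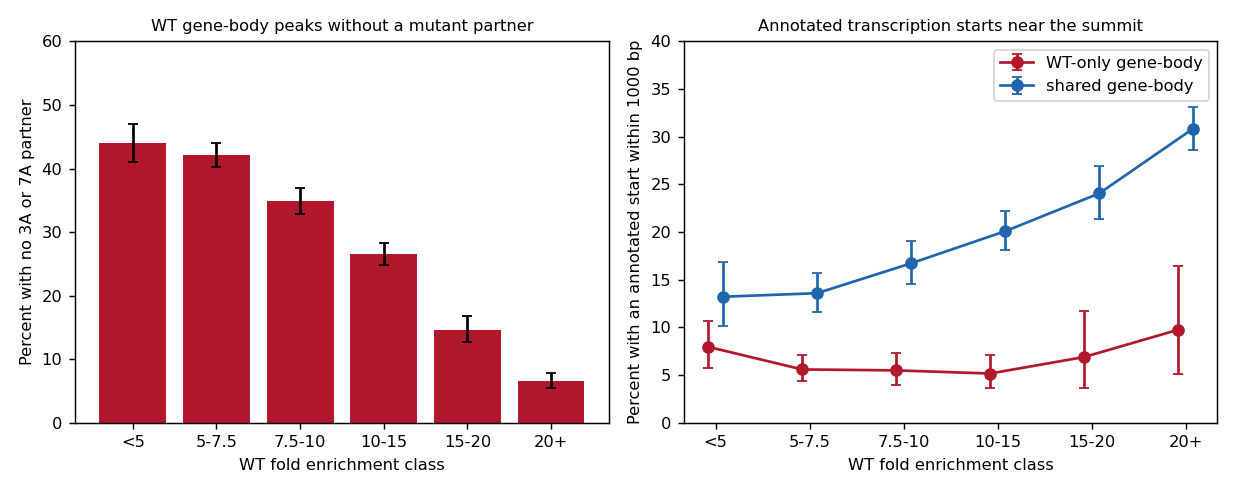
Left, percent of WT gene-body peaks with no 3A or 7A partner (bars from 0) by class of WT fold enrichment; right, percent of WT-only and of shared gene-body peaks with an annotated transcription start within 1000 bp of the summit in the same classes (points). Error bars are 95% Clopper-Pearson intervals, and the left bars go from 44.0% down to 6.60%.

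The WT list was the longest of the 3. When each list was reduced to the length of the shortest by −log10 q, 1498 peaks met the rule, 18.99% of gene-body peaks, with a median fold enrichment of 10.8. Of the 3365 members 1424 remained. All of the 25 strongest members remained.

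The strongest member by fold lay in PI4K2A, which encodes a phosphatidylinositol kinase of endosomes and the Golgi (chr10:97659439-97659949). Its fold enrichment was 87.2 and its rank by fold was 201 of the WT list, from a treatment coverage of 435 over a background of 4.0. The nearest mutant peak was 10054 bp away. All 3 lists held the gene's other peaks, 1 at its end and 1 inside. PDXK, the kinase that makes the active form of pyridoxine, followed at 51.0 (chr21:43725734-43726216), 1283 bp from a 3A peak. BCAR1, the focal adhesion adaptor p130Cas, had 1 at 50.6 (chr16:75233858-75234817), 3182 bp from a mutant peak. The other 5 WT peaks of BCAR1, with folds between 5.97 and 30.4, were all overlapped in both mutant lists. By fold, the strongest site of the gene in the WT list was thus the one without a partner. By −log10 q the shared peak of fold 30.4 stood higher (1046 against 729). JADE2, a PHD finger gene, stood at 47.6, with an annotated start 141 bp from the summit.

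NCOA2, a coactivator of nuclear receptors, had a member of 46.9 (chr8:70315595-70316126) 86230 bp from any mutant peak and a further member of 11.4. The third WT peak of NCOA2, at 22.8, was shared by all 3 lists. PDE7A, which degrades cyclic AMP, stood at 45.6 and ANKMY1 at 45.5. DUSP9, a phosphatase that switches off MAP kinases, stood at 44.8, and SYNCRIP, an RNA-binding protein gene, at 44.6, 510 bp from a mutant peak. CSMD1, a very long gene for a membrane protein of complement control, had a member of 41.7. NFIA, a transcription factor gene, stood at 39.1, 309 bp from an annotated start. Below these came SAXO5, ADARB1 (an RNA-editing enzyme), ABI3BP, the ubiquitin ligase NEDD4L, TPGS1, NSMF, ETS1, SLITRK5, the overlapping pair BIVM-ERCC5 and ERCC5, CHN2, WDR90, AP3D1 and CALCRL, down to 32.1. Of the 25 strongest members, 3 lay within 1000 bp of a mutant peak and 12 within 5000 bp; 16 lay within 50000 bp.

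The widest members had another form. RIMBP2, a presynaptic scaffold gene, held a peak of 3217 bp (fold enrichment 15.1), NANOS3, a germ cell gene, 1 of 3041 bp (20.9), and SOX9, the regulator of cartilage fate, 1 of 2959 bp (17.1). DUSP9 (2210 bp) and MAGI1 (2066 bp) completed the 5 widest. All 5 summits lay near the line of the rule, between 1482 and 2523 bp from a gene end. The SOX9 peak (chr17:72121752-72124710) was 401 bp from a 3A peak and 422 bp from a 7A peak that both covered an end of the gene, where the WT list held a peak too.

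Most members were not the edge of a mutant peak. Between the edges, the median distance to the nearest 3A or 7A peak was 17599 bp, and 204 members (6.06%) lay within 500 bp, 348 (10.3%, 9.33 to 11.4%) within 1000 bp and 1287 (38.2%) within 10000 bp. Distances were alike for both mutants, with medians of 19147 bp to a 3A and 20579 bp to a 7A peak. Within 1000 bp of a mutant peak were 7.02% (6.24 to 7.87%) of WT-only peaks outside genes and 34.7% (31.1 to 38.4%) of those at gene ends. A peak shared by all 3 lists stood within 10000 bp of 1079 members (32.1%). The members farthest from mutant peaks lay in LRP1B, a very long gene of the LDL receptor family, at 1994253 bp and 1510447 bp (folds 7.18 and 13.0). LOC124903401 came next at 1444984 bp, MGAT4C at 1322616 bp and CSMD1 at 1317321 bp.

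**Figure D3:**
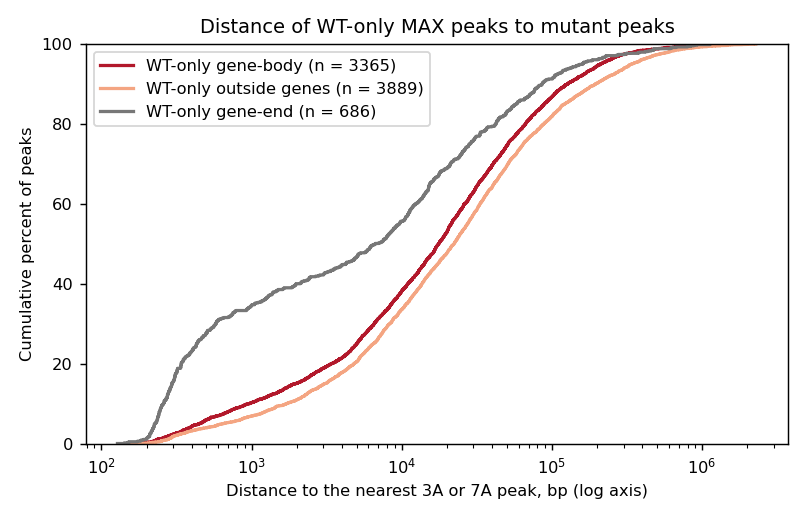
Cumulative percent of WT-only peaks (vertical axis) against the distance in bp from the peak to the nearest 3A or 7A peak (horizontal axis, logarithmic), with 1 line for each place of the peak. The line of gene-body peaks stands at 10.3% at 1000 bp, that of gene-end peaks at 34.7% and that of peaks outside genes at 7.02%.

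The rule has 2 lines, and peaks lie close to both. Just inside the line at 1000 bp from a gene end were members in NPTX2 (1003 bp, fold 5.41), in the overlapping genes BAD and GPR137 (1006 bp, 12.1) and in UCHL5 (1011 bp, 11.7). Just outside it were LRRC73 (1000 bp, 8.88) and ADGRB2 (997 bp, 9.58). The smallest gaps between a member and a mutant peak were 167 bp in MAP7 (fold 4.88), 168 bp in TNS3 (5.61) and 186 bp in VGLL4 (6.19). The smallest overlaps that excluded a peak were 165 bp in PHACTR4 (6.30), 170 bp in CCDC88C (5.02) and 174 bp in SMARCA1 (7.13). No peak was thus decided by a few bases of overlap.

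Annotated starts were less often near members than near shared peaks. A start lay within 300 bp of 105 members (3.12%, 2.56 to 3.76%) and of 979 shared peaks (14.4%, 13.6 to 15.3%). The promoter table covered 15811 of the 19970 protein-coding genes and no start on chromosome 8, where 147 members and 483 WT gene-body peaks lay. These shares count unlisted starts as absent. Of the sequences printed above, that of NR3C2, the mineralocorticoid receptor, went with a fold of 17.8. Besides the peaks printed there, the strongest members on a promoter window were in NPAS3, a neuronal transcription factor (20.4), at LOC101929918 inside CAPRIN1 (19.1) and in RBPJ, the DNA-binding factor of Notch signalling (16.0). An end of a gene that is not protein-coding lay within 1000 bp of 169 members (5.02%, 4.31 to 5.82%), for 131 a lncRNA, and of 640 shared peaks (9.42%, 8.74 to 10.1%). A miRNA hairpin lay within 1000 bp of 12 members (0.357%, 0.184 to 0.622%) and of 35 shared peaks (0.515%, 0.359 to 0.716%). The 12 members included TRAPPC14 with MIR4658 (18.3), SLC39A1 with MIR6737 (13.5), ARPP21 with MIR128-2 (7.90), a hairpin 170 bp from the summit that yields a brain-enriched miRNA, and COL3A1 with MIR1245A (5.81). These genes and those of the promoter windows were picked after their values were seen.

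Members were spread along the host gene. In the 2707 members whose host has a known strand, 5 equal stretches of the gene, from start to end, held 22.5, 21.4, 20.4, 18.7 and 17.1%. Shared gene-body peaks leaned more to the start, with 26.1% (24.9 to 27.2%) in the first stretch and 14.9% in the last (n = 5522). Within 10000 bp of the host's start were 17.4% (16.0 to 18.9%) of members and 23.7% (22.6 to 24.9%) of shared peaks. Strand came from the promoter table, which covers 15811 of the 19970 protein-coding genes.

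The members lay in 2371 genes, 11.9% of all protein-coding genes on these chromosomes. Hosts were long: their median length was 111910 bp against 24190 bp for all genes, and 1.59% of genes under 10000 bp hosted a member against 61.6% of those of 300000 bp and over. Per Mb of gene body the order was the other way, from 3.55 members per Mb in the shortest class to 2.39 in the longest. Of the hosts, 1713 held 1 member and 42 held at least 5. A gene-end peak in all 3 lists was present at 54.8% (52.8 to 56.8%) of hosts, beside 52.9% of all genes. Hosts thus had gene-end peaks in all lists about as often as genes in general. A gene-end peak in the WT list was more frequent at hosts, 63.3% (61.4 to 65.3%) against 57.4% (56.7 to 58.1%). At 338 hosts (14.3%) no mutant peak had its summit inside the gene or at an end, compared with 33.1% of all genes. Hosts were longer than genes in general and held a WT peak by the rule, and these comparisons of hosts with all genes were not matched for length.

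RBFOX3, which encodes the neuronal splicing factor NeuN, held 12 members, the most of any gene (chr17:79089345-79665571). Its 20 WT peaks inside the gene stood beside 8 in 3A and 7 in 7A, and the members' folds went from 3.74 to 18.6. RBFOX1, its relative, had 9 members among 22 WT peaks, with 14 in 3A and 8 in 7A. PTPRN2 and LRMDA held 8 each. LRMDA had 31 WT, 26 3A and 22 7A peaks, so that most of its WT peaks had a partner. SHROOM3, an organiser of apical actin, LDLRAD4, an inhibitor of TGF-beta signalling, KIAA1217, FRMD4A, NAV2, GRIK4 (a kainate receptor subunit), SORCS2 and SHANK2 held 7 each.

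**Figure D4:**
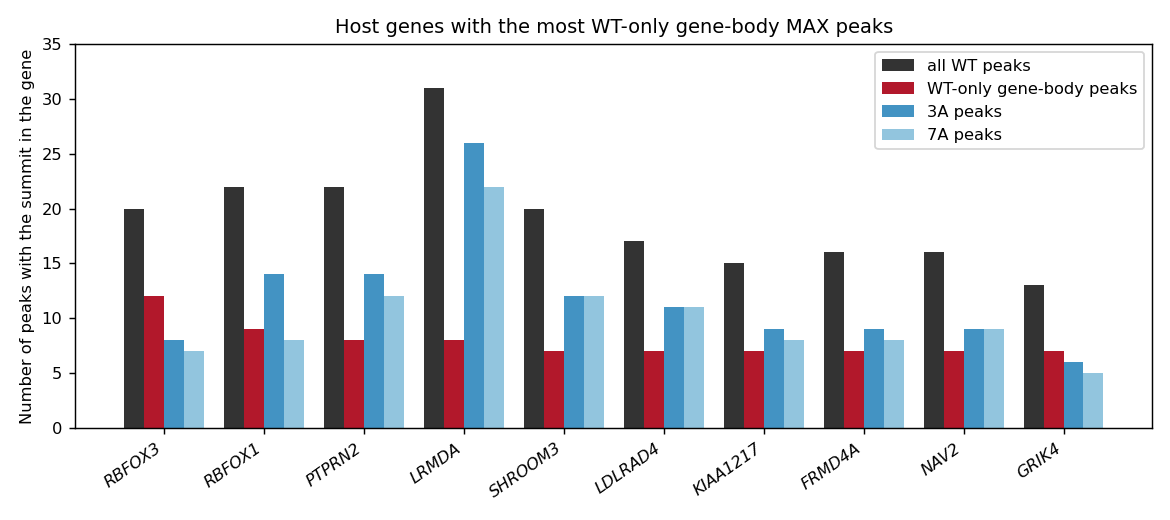
Number of peaks with the summit inside the gene (vertical axis, from 0) for the 10 host genes drawn, ordered by their number of members: all WT peaks, WT-only gene-body peaks, 3A peaks and 7A peaks. RBFOX3 has 12 members of 20 WT peaks, and LRMDA 8 of 31.

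Some hosts had no mutant peak with its summit inside the gene or within 1000 bp of an end. CSMD1 held 5 WT peaks, all of them members, with folds of 41.7, 4.30, 12.6, 25.1 and 13.1 along 2059.6 kb, and no 3A or 7A peak. COL25A1, a brain collagen, had 4, with a highest fold of 13.9. VGF, a gene of 7.44 kb for a neuropeptide precursor induced by nerve growth factor, held 3 members with folds of 18.8, 13.5 and 7.79. A further 2 WT peaks, of 23.2 and 16.2, at the gene's ends also had no partner, so all 5 peaks of VGF were WT-only. DMD (dystrophin), PRKCB, KCNH7, BARX2, ROBO2, KCNIP2, SIPA1L2, NTNG1 and PTPRO held 3 members each and no mutant peak. These genes were singled out after their values were seen.

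Another member lay within 50000 bp of 1180 members (35.1%, 33.5 to 36.7%), and within 1000 bp of 86. The spacing of other peaks was not set beside these counts, so they do not show grouping particular to members. The fullest stretch of 50000 bp by count ran over SLC6A18 and TERT on chromosome 5, with 5 members in 44.5 kb. TERT, the catalytic subunit of telomerase and a known MYC target, had 7 WT peaks inside the gene or at its ends. Of these, 4 were members (12.6, 5.15, 5.91 and 4.25), and 2 more had no partner but lay at gene ends: 1 of 16.7 inside TERT near an end of another gene, and 1 of 19.6 with its summit 52 bp from an end of TERT. The seventh, of 11.4, was overlapped in 3A, which held this 1 peak at TERT; 7A held none. GRIK4 also had 5 members in 39.1 kb. AP1S1 with VGF (10.5 kb), SHROOM3, MB21D2 and NUAK1 each had 4 members within 50 kb.

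Of the 810 genes on 24 lists of pathways and cell functions, 219 hosted a member. The lists were chosen with earlier results of these data known, and each list described is set beside the share of hosts among all genes of the same length classes, as a description. With lists of equal length the pair of shares, added after the data were seen, is given again where the count of hosts then changed by over 1.5 times. Adhesion and cytoskeleton lists stood above the level of like-length genes in both, but so did most of the 24 lists. With equal length the Hippo list (21.4% against 8.47%) and the circadian list (21.7% against 8.16%) did so too. Below that level with the full lists were only the MAX network, RAS-MAPK, ribosomal protein, and liver, gut, blood and muscle lists. Hosts of shared gene-body peaks were not counted by list, so no theme particular to members is shown. Actin and myosin genes had 15 of 34 (44.1% against 23.8%; equal length 9, 26.5% against 12.8%), with PALLD, which bundles actin (26.7), MYO18A (22.8) and the spectrin SPTBN1, whose 5 members reached 17.6. SPTBN1 held 9 WT peaks inside the gene, beside 3 in 3A and 2 in 7A.

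Integrins and focal adhesion genes had 15 hosts of 34 (44.1% against 23.9%; equal length 7, 20.6% against 12.9%), led by BCAR1, its relative NEDD9 (21.6) and ITGB4 (10.98). Collagens and matrix glycoproteins had 15 of 35 (42.9% against 21.9%; equal length 9, 25.7% against 11.6%), with the laminin chain LAMA4 (15.3), SPARC (13.6) and COL4A2 (13.4). Receptor tyrosine kinases had 15 of 36 (41.7% against 23.3%), but 6 with equal length (16.7% against 12.5%). EGFR stood at 11.5, EPHB2 at 11.4 and ERBB4 at 9.95. In the Hippo pathway and its YAP targets 9 of 28 genes were hosts (32.1% against 16.0%), with ARHGEF17 (15.8), LIMD1 (11.9) and CRIM1 (11.9). Genes spanning common fragile sites, which are very long, had 19 of 25 (76.0% against 61.6%) with 64 members, among them CSMD1 and PTPRN2 (22.9). The median gene length in this list was 1477.9 kb. The longest length class, 300000 bp and over, has no upper limit, so length within it was not matched. Neuronal and glial lineage genes had 21 of 37 (56.8% against 40.5%), led by MAP2 (18.5), NRXN3 (13.0) and GRIN1 (11.6). With equal length this list had 7 hosts and lay below genes of like length (18.9% against 22.6%). Genes of liver, gut, blood and muscle had 2 of 36 (5.56% against 7.15%), VIL1 and PAX8, and 0 with equal length (0% against 3.85%).

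**Figure D5:**
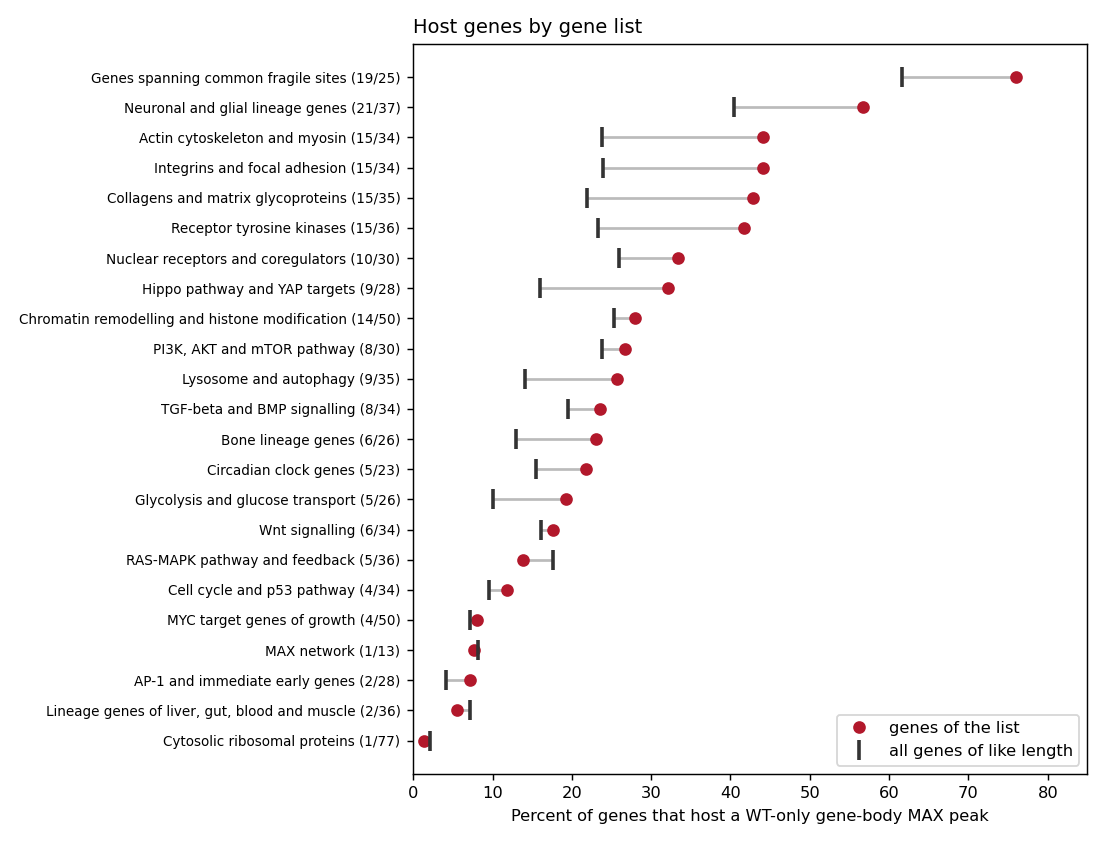
Percent of genes (horizontal axis) that host a WT-only gene-body peak in each of 23 gene lists (vertical axis, hosts of listed genes in brackets). Red points are the genes of the list and black ticks all protein-coding genes of like length; collagens and matrix glycoproteins stand at 42.9% against 21.9%, cytosolic ribosomal proteins at 1.30% against 2.13%.

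The other signalling, receptor and chromatin lists followed. TGF-beta and BMP signalling had 8 of 34 (23.5% against 19.5%), with the latent TGF-beta binding protein LTBP4 (27.0), the receptor BMPR2 (20.5) and TGFBR3, whose 4 members reached 12.0. Wnt signalling had 6 of 34 (17.6% against 16.1%); the transcription factor TCF7L2 held 6 members of 11 WT peaks, up to 13.8, and LRP5 and ROR1 stood at 15.6 and 8.54. PI3K, AKT and mTOR genes had 8 of 30 (26.7% against 23.7%; equal length 4, 13.3% against 12.7%), led by the insulin receptor substrate IRS1 (30.6), INPP4B (16.2) and PIK3CB (11.5). RAS-MAPK genes had 5 of 36 (13.9% against 17.6%), with KSR1 (11.1), ETV6 (8.84) and GRB2 (8.56). Nuclear receptors and coregulators had 10 of 30 (33.3% against 26.0%), where the estrogen receptor gene ESR1 (14.8) followed NCOA2 and NR3C2. Chromatin genes had 14 of 50 (28.0% against 25.3%; equal length 8, 16.0% against 13.5%), led by the SWI/SNF genes SMARCD3 (24.2) and SMARCA4 (16.7) and by HDAC9 (15.5).

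Lists of growth and of the MAX network were near genes of like length. MYC target genes of growth had 4 hosts of 50 (8.00% against 7.16%), among them TERT, SLC7A5, an amino acid transporter (14.5), and BCAT1 (7.80). Cytosolic ribosomal proteins had 1 of 77, RPL13 (5.61; 1.30% against 2.13%). In the MAX network 1 of 13 genes was a host (7.69% against 8.22%): MNT, a MAX partner that represses transcription, had a member of 12.0 beside peaks of 119 and 26.9 that all 3 lists shared. AP-1 and immediate early genes had 2 of 28 (7.14% against 4.08%; equal length 1, 3.57% against 2.26%), MAFK (27.5) and ATF3 (5.19). Cell cycle and p53 pathway genes had 4 of 34 (11.8% against 9.52%; equal length 2, 5.88% against 5.01%), with FAS (9.64), E2F3 (9.55) and CDK6 (5.91).

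The remaining lists were of cell functions and of bone. In the circadian clock list, with 5 of 23 hosts (21.7% against 15.4%), the related repressors BHLHE41 and BHLHE40 each had 1 WT peak, at 16.3 and 13.2, in genes of 5.01 and 5.89 kb, of which the first overlaps SSPN. No mutant summit lay in either gene or within 1000 bp of its ends, but mutant peaks lay near the members, 1529 bp away at BHLHE41 and 352 bp at BHLHE40. The members were 1440 bp and 1236 bp wide. HLF stood at 9.08. Bone lineage genes had 6 of 26 (23.1% against 13.0%; equal length 3, 11.5% against 6.84%), with PHEX (15.6) and ZEB2 (14.8) after SOX9. Lysosome and autophagy genes had 9 of 35 (25.7% against 14.0%; equal length 4, 11.4% against 7.52%), led by the acid glucosidase GAA (14.9), UVRAG (11.5) and LAMP2 (8.55). Glycolysis and glucose transport had 5 of 26 (19.2% against 10.1%; equal length 3, 11.5% against 5.28%), with the phosphofructokinase PFKP (19.97), HK1 (9.26) and PDK1 (8.89).

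Every chromosome from 1 to 22 and X held members. The share of gene-body peaks without a partner went from 21.6% (14.7 to 29.8%, n = 125) on chromosome 21 to 35.8% (31.5 to 40.2%, n = 481) on chromosome 4. Per Mb of protein-coding gene body there were 2.67 members over all, 1.16 on X and 4.67 on chromosome 22. The median background coverage at members was also lowest on X (4.0) and highest on chromosome 22 (15.1); its part in the number of members was not tested.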

How the data were processed

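The deposited data are 3 narrowPeak lists without a header, 1 per MYC form. The fold enrichment is the authors' linear ratio at the summit, and the −log10 p and −log10 q are those the authors deposited; the deposited score was not used further. Per the submitters' processing notes the tools were MACS2, Bowtie2, Picard, SAMtools and cutadapt and the builds hg38, hg19 and mm10; no roles or versions are given. Not given in the sources used here are the libraries and controls behind a list and whether mouse reads scaled it. Positions were read as hg38 and count from 1. There were 0 columns of other samples.

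Peaks were compared by an overlap of at least 1 bp, and gene bodies came from the outer ends in the RefSeq table (GRCh38.p14). Treatment and background coverage were solved from fold and −log10 p with the formulas of MACS2. On 4988 simulated summits 92.0% were solved, and 100% of these were right in treatment coverage, the only value compared. The simulation used the same formulas, so it checks the solving and not whether the deposited values follow them. Motifs were planned around summits, which needs a genome, so annotated promoter windows (250 bases before to 50 after a start) replaced them. Shares have 95% Clopper-Pearson intervals. Since the rule used the peak calls of 1 list per form, no test was made. Members, gene lists and alternatives were chosen with earlier results of these data known. All 810 listed genes matched.

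Named are the 25 strongest and 5 widest members, the 5 farthest from mutant peaks, the 10 hosts with most members (ties at the tenth also), up to 3 hosts per gene list by strongest member, and the 3 peaks nearest to each line of the rule. Other names were chosen after their values were seen, and some items that the rule names are not reported here. Computations used SciPy 1.17.1, NumPy 2.4.6 and pandas 2.3.3 in Python 3.11.15, and plots matplotlib 3.10.9.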

Additional observations from a re-analysis of the deposited data

How the results depend on the processing

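With lists of equal length (the strongest peaks by −log10 q, as many as the shortest list holds), the number of WT-only gene-body peaks was 1498 and of their host genes 1269, the share without a mutant partner 18.99%, the median fold enrichment 10.8, the median width 359 bp, the share with a shared peak within 10000 bp 36.7%, the share of hosts with a gene-end peak in all 3 lists 49.6%, and the listed genes hosting a member 127; the 9 alternatives left 1424 or more of the 3365 members. Requiring that no mutant peak lie within 1000 bp gave a share without a partner of 26.0%, a width of 318 bp and a share near a shared peak of 25.7%. Counting peaks as shared only from 50% of both gave 32.5%, a fold of 7.74, 336 bp and 30.4%. Counting them only from summits within 100 bp gave 34.6%, 7.81, 351.5 bp, 29.7%, and 5.84% near an end of a gene that is not protein-coding. A line at 500 bp from gene ends gave 27.4% without a partner, and one at 2500 bp gave 29.9%, 318 bp and 28.7% near a shared peak. Keeping all genes' ends away, not only those of protein-coding genes, left 0% near a non-coding end by construction. A −log10 q of at least 10, in all lists or in WT alone, moved none of these 9 results beyond its interval, nor the count by over 1.5 times. The cause of the other shifts was not tested.

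All 25 strongest members remained except under no mutant peak within 1000 bp (22) and the 2500 bp line (20). No paired analysis was possible because each MYC form has 1 list without replicates. The lists give no library depth, so a peak missing from a mutant list may be one that was below detection there.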
